A study of Drosophila melanogaster with 23 samples.

Results

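Brains of 40-day-old female flies were compared with brains of 5-day-old females. The comparison rests on 6 of the 23 libraries of the study, 3 from each age, and covers the 10505 of 17521 counted genes that passed a filter on low counts. All flies were wild-type Canton-S with no transgene or treatment, so that age is what the labels of the 2 groups differ in. Each library was made from total RNA of a pool of 18 dissected whole brains, and values therefore describe pools and not single flies. Females of 20 and 30 days and males of the same 4 ages make up the other libraries. A library name gives the sex, the age in days and the replicate letter, as in F40B. The question was which transcripts of the female brain are higher or lower late in adult life.

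An old brain is known from many animals for lower transcript levels of the enzymes that make ATP and for higher levels of stress and immune genes. In the mitochondrion, complexes I to IV pass electrons from the citric acid cycle to oxygen and pump protons, and the ATP synthase uses the proton gradient to make ATP. Neurons depend on this supply for ion pumping and for vesicle cycling, while glia feed neurons, clear transmitter and engulf debris.

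A level here is given in CPM, counts scaled to an equal library size with the TMM factors of edgeR. A log2 fold change (log2 FC) is 40 days minus 5 days, so that 1 is a doubling and −1 a halving, and it comes with its standard error (SE). A gene is said to have risen or fallen, or to be called, only where it passed a 5% false discovery rate (adjusted p) in edgeR's quasi-likelihood tests of the 4 female ages together and of 40 days against 5 days. The spread was taken from all 12 female libraries, with n = 3 at each age. Tests are two-sided, and positions are on Release 6 of the genome (dm6).

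The 5-day-old libraries were deeper than the 40-day-old ones, with 23506695 to 28687450 counts against 6770442 in F40B, 14470794 in F40A and 16124005 in F40C. Depth and age cannot be told apart in the deposited totals, but the comparison was repeated after thinning each library to the smallest total. Then 745 of 9764 genes were called, 286 up and 459 down. Of these, 221 and 417 were among the 771 calls given below. The brain label was checked against 11 neuron markers, which summed to 7740 to 11190 CPM at 5 days and 8782 to 10274 CPM at 40 days. The lowest value of any neuron marker in any of the 6 libraries was 239.7 CPM.

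Markers of other tissues set single libraries apart. The 31 midgut markers, mostly digestive proteases, summed to 26988 CPM in F5B and 23703 CPM in F40A, against 28.3 to 208 CPM in the other 4 libraries. The retina list summed to 32499 CPM in F5A and to 6653 CPM in F5C, with the rhodopsin gene ninaE spread from 298 CPM (F5C) to 13411 CPM (F5A) at 5 days. In old libraries it lay between 4247 and 6146 CPM. The eggshell gene Vm26Aa was at 72.3 CPM in F5C and at 0.858 CPM or less in the other 5 libraries. None of the midgut, fat body or ovary markers tested was called. The germline gene osk was at 1.80, 4.28 and 9.92 CPM at 5 days and at 0 in the 3 old libraries, while vas, aub and piwi were above 0 in all 6. The yolk protein gene Yp1, made by the fat body, was at 32530, 29022 and 10612 CPM in young and at 5172, 2122 and 5866 CPM in old libraries. The fat body list summed to 25059 to 68293 CPM in young and 9715 to 18396 CPM in old libraries. At 5 days most of that sum came from Yp1, Yp2 and Yp3. Of the 11 members tested 6 were lower and 5 higher, with a median log2 FC of −0.03. For Yp1 the ages did not overlap, and it was not called. The part of these RNAs in the results below was not tested beyond the counts given without the libraries concerned.

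**Figure D1:**
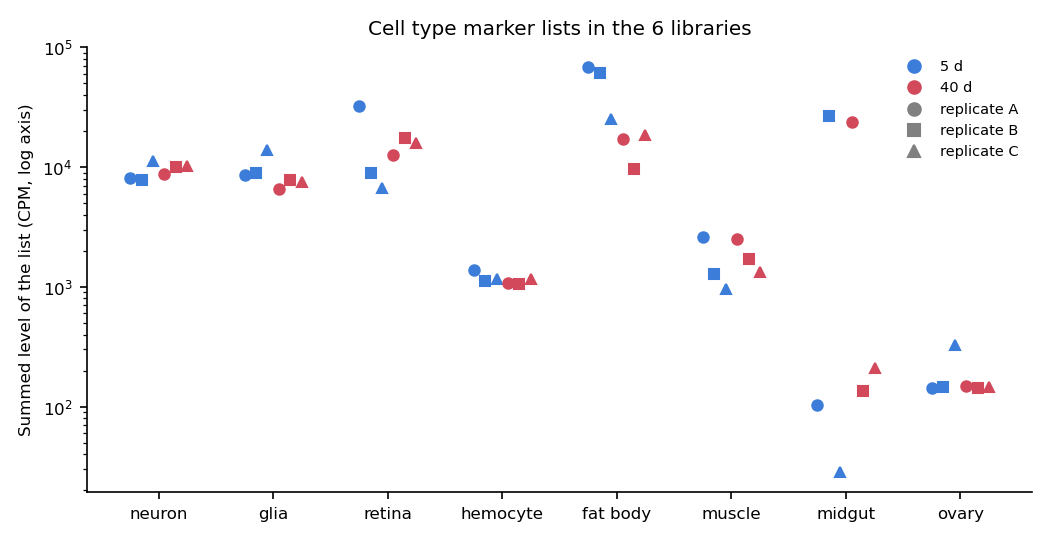
Summed level of 8 cell type marker lists (CPM, log axis) in the 6 libraries, 3 at 5 days (blue) and 3 at 40 days (red), with a symbol shape for each replicate letter and no error bars. F5B at 26988 CPM and F40A at 23703 CPM stand apart from the other 4 libraries in the midgut list, and the neuron sums of the 2 ages overlap.

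Of the 10505 genes tested, 771 changed between 5 and 40 days in female brains (7.34%). More genes fell than rose, 512 (4.87%) against 259 (2.47%). These are the shares to set beside the counts of each gene list below. The groups of libraries did not overlap for any of the 771. Over all genes tested, no overlap was seen for 3422 genes (32.6%), more often lower (1952) than higher (1470). Most falls were moderate. The median log2 FC of the genes that fell was −0.84 and 153 of the 512 were halved or more, while 124 of the 259 that rose were doubled or more and 47 of them reached a 4-fold rise. In libraries of whole brains, fewer cells of a type and less RNA per cell cannot be told apart.

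The number of calls depended on single libraries. It was lowest without F40B (237) and highest without F5C (1197), it was 385 without F40A, 323 without F40C, 429 without F5A, 424 without F5B, 493 without F30A and 466 without F30B, and it was 93 without F5B and F40A together, of which 21 rose and 72 fell (20 and 71 of them among the 771). Without the 4 female libraries in which the midgut gene mex1 exceeded 10 CPM (F5B, F30A, F30B and F40A), 9 genes were called. DESeq2 called 1496 genes (10.3% of its 14471), with 730 up and 766 down, and these included all 771. Of the genes called with edgeR, 51 that rose and 147 that fell kept the call with each of the 12 female libraries left out in turn.

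Of the called genes with a mean of at least 5 CPM over the 6 libraries, the 12 largest rises included genes almost silent in young brains. CG11671, named Nazo in the current annotation (3R, 8287876 to 8288613, plus strand), was at 0.172, 0.415 and 0.204 CPM in the 5-day-old libraries and at 83.5, 16.9 and 11.95 CPM at 40 days (log2 FC 7.12, SE 1.42, adjusted p = 0.0163). All 3 old libraries lay far above the young ones, with F40A the highest. CG10814 (2R, 13375975 to 13377731, minus strand) was at 6.26, 2.74 and 0.680 CPM at 5 days against 263, 329 and 472 CPM at 40 days (log2 FC 6.78, SE 0.88, adjusted p = 0.00247). It was the most abundant of the 12 largest rises in the old brains except for Drs in F40B. CG1942 (Dgat2), which the annotation names for the enzyme that completes triglyceride synthesis, went from 0.0858, 1.41 and 0.102 CPM to 11.2, 46.2 and 24.3 CPM (log2 FC 5.66, SE 1.16, adjusted p = 0.0166). CG17264 was at 0.601, 0.831 and 1.12 CPM at 5 days against 31.8, 37.3 and 29.9 CPM at 40 days (log2 FC 5.26, SE 0.93, adjusted p = 0.00941).

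Secreted and defense products made up much of the rest of these 12. Obp99b, an odorant binding protein (3R, 29716254 to 29716896, minus strand), was at 3.30, 5.40 and 0.816 CPM at 5 days against 75.5, 126 and 125 CPM at 40 days (log2 FC 5.10, SE 0.87, adjusted p = 0.00867). Drs, the antifungal peptide drosomycin, was at 39.1, 19.7 and 9.04 CPM in young libraries and at 147, 481 and 130 CPM in old ones (log2 FC 3.48, SE 0.72, adjusted p = 0.0174). SPH93, a serine protease homolog, went from 25.4, 4.49 and 4.28 CPM to 143, 148 and 87.2 CPM (log2 FC 3.47, SE 0.85, adjusted p = 0.0350). In each of these the lowest old library was above the highest young one. The remaining members were CG12256, the cytochrome P450 gene Cyp4e3 and the 3 Turandot genes described below, with log2 FC of 3.51 to 4.48. Of the 12, CG10814 and CG12256 kept the call with every single female library left out. Drs lost it without F5B only, CG1942 without F5A, F30B, F40B or F40C, Obp99b without F5A, F40B or F40C, and the other 7 without 4 to 10 different libraries.

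**Figure D2:**
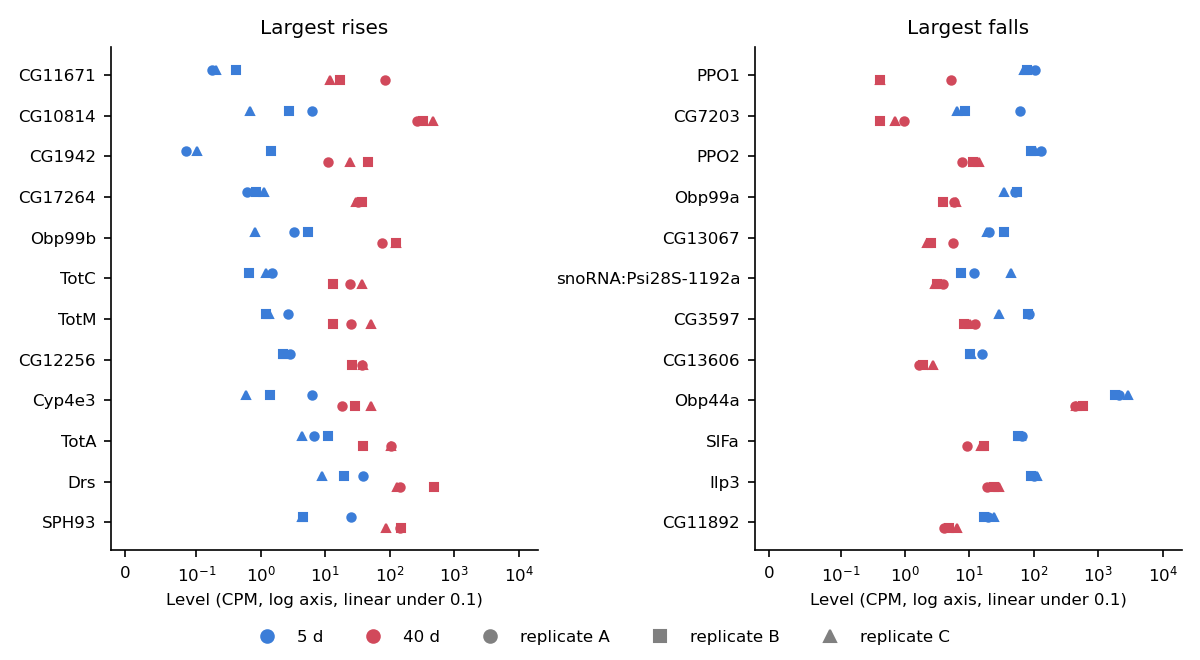
Level (CPM, log axis, linear under 0.1 CPM) of the 12 called genes with the largest rise (left) and the largest fall (right) among those with a mean of at least 5 CPM, with one point per library and no error bars, 5 days in blue and 40 days in red. The 2 ages do not overlap in any row, and CG11671 stands at 0.172 to 0.415 CPM against 11.95 to 83.5 CPM.

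The 12 largest falls at that level held both prophenoloxidase genes of crystal cells, the blood cells that make the enzyme for melanin. PPO1 (2R, 17887220 to 17889973, minus strand) was at 105, 77.1 and 70.0 CPM at 5 days against 5.27, 0.406 and 0.410 CPM at 40 days (log2 FC −5.32, SE 1.09, adjusted p = 0.0181). F40A, the higher of the old libraries, was still below every young one. PPO2 went from 129, 90.6 and 106 CPM to 7.69, 11.5 and 14.2 CPM (log2 FC −3.28, SE 0.43, adjusted p = 0.00218). The call of PPO1 was lost without any one of 10 of the 12 female libraries and that of PPO2 without none. CG7203 was at 60.4, 8.60 and 6.52 CPM in young and at 0.970, 0.406 and 0.703 CPM in old libraries (log2 FC −5.13, SE 1.13, adjusted p = 0.0220), and lost its call without any one of 6 libraries.

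Another pair of odorant binding protein genes was among these 12. Obp44a (2R, 8134170 to 8135315, minus strand) was the most abundant of them, at 2118, 1846 and 2857 CPM in young libraries and at 440, 578 and 459 CPM in old ones (log2 FC −2.21, SE 0.27, adjusted p = 0.00144). Each old library lay far below the lowest young one. Obp99a went from 50.6, 55.0 and 34.1 CPM to 5.82, 3.92 and 6.27 CPM (log2 FC −3.11, SE 0.62, adjusted p = 0.0142). The other members were the neuropeptide SIFa, the insulin-like peptide Ilp3, snoRNA:Psi28S-1192a and 5 genes without a name of their own, CG13067, CG3597, CG13606, CG11892 and CG7203. PPO2, CG13067, Obp44a, SIFa, Ilp3 and CG11892 kept the call with every female library left out in turn.

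Transcripts of the ATP-producing machinery fell together. Of 14 genes of the ATP synthase list tested, 13 fell and none rose, with a median log2 FC of −1.03, against −0.03 over all genes tested. CG4692 (ATPsynF), a membrane-sector subunit, was at 392, 355 and 271 CPM at 5 days against 138, 114 and 132 CPM at 40 days (log2 FC −1.41, SE 0.16, adjusted p = 0.00107). ATPsyn-d (ATPsynD) and Oscp (ATPsynO), both parts of the peripheral stalk, fell by 1.31 (SE 0.18 and 0.17), and ATPsyn-gamma, the rotating central shaft, by 1.20 (SE 0.15). ATPsyn-beta, the catalytic subunit, went from 1777, 1474 and 1242 CPM to 892, 790 and 822 CPM (log2 FC −0.84, SE 0.15, adjusted p = 0.00759). CG13551 was the member not called, at a log2 FC of −0.50.

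The electron transport chain moved with it. In complex I, 27 of 31 members tested fell, none rose and the other 4 were also lower, with a median of −0.84 and a summed level of 3499 to 4199 CPM at 5 days and 2108 to 2213 CPM at 40 days. CG40002 (ND-AGGG) had the largest fall of the list, from 26.3, 21.9 and 28.0 CPM to 11.8, 9.06 and 7.85 CPM (log2 FC −1.41, SE 0.20, adjusted p = 0.00242). In complexes II to IV with cytochrome c, 21 of 23 fell and none rose, with a median of −1.06. RFeSP, the Rieske iron-sulfur protein of complex III, was at 436, 388 and 326 CPM in young and at 165, 145 and 164 CPM in old libraries (log2 FC −1.28, SE 0.13, adjusted p = 0.00107). CoVa (COX5A) of cytochrome c oxidase went from 461, 428 and 337 CPM to 185, 166 and 170 CPM (log2 FC −1.24, SE 0.15, adjusted p = 0.00109). SdhA, the flavoprotein of complex II, at −0.37, and CG30354, at 0.66, were the members not called.

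The citric acid cycle list, which shares succinate dehydrogenase with complex II, had 14 of 19 members that fell and none that rose (median −0.84). Mdh2, the mitochondrial malate dehydrogenase, was at 698, 665 and 476 CPM at 5 days against 335, 229 and 262 CPM at 40 days (log2 FC −1.15, SE 0.20, adjusted p = 0.00732). CG11876 (Pdhb) and CG5261 (muc), subunits of pyruvate dehydrogenase, fell by 1.08 each (SE 0.13 and 0.17). In glycolysis 9 of 17 fell, and they form an almost unbroken run of the pathway, with Pfk, Tpi, Gapdh1, Gapdh2, Pgk, Pglym78, Eno and PyK beside the glycogen phosphorylase GlyP. Pglym78, phosphoglycerate mutase, went from 475, 438 and 404 CPM to 219, 214 and 217 CPM (log2 FC −1.02, SE 0.10, adjusted p = 0.000869). GlyP went from 658, 652 and 526 CPM to 291, 291 and 304 CPM (log2 FC −1.05, SE 0.12, adjusted p = 0.00109). The exception in direction was Treh, the enzyme that splits the blood sugar trehalose, at 641, 667 and 951 CPM in young and 1168, 1325 and 1280 CPM in old libraries (log2 FC 0.74, SE 0.17, adjusted p = 0.0223). Treh lost the call without any one of 10 libraries, and ImpL3, lactate dehydrogenase, at 7.68 to 25.1 CPM in young and 33.1 to 65.2 CPM in old libraries, was not called.

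Carriers of the inner and outer mitochondrial membranes, chosen after their values were seen, moved the same way. sesB, the ATP/ADP exchanger, was at 2922, 2776 and 2442 CPM at 5 days against 1497, 1131 and 1248 CPM at 40 days (log2 FC −1.07, SE 0.14, adjusted p = 0.00186). The outer membrane channel porin fell by 1.12 (SE 0.13, adjusted p = 0.00107) and the phosphate carrier Mpcp by 1.12 (SE 0.15, adjusted p = 0.00211). Of the genes for mitochondrial protein import and folding, 5 of 15 fell and none rose. CG11267, a co-chaperonin homolog, had the largest fall, from 90.6, 85.1 and 61.5 CPM to 33.0, 34.9 and 33.5 CPM (log2 FC −1.23, SE 0.18, adjusted p = 0.00276).

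With any single female library left out, falls numbered 18 to 27 in complex I, 16 to 22 in complexes II to IV, 8 to 13 in the ATP synthase, 5 to 15 in the citric acid cycle and 7 to 11 in glycolysis. The lowest of each came without F40B or F40C, and for the ATP synthase also without F5A. Without F5B and F40A together the falls were 9, 7, 5, 1 and 2, and the medians were −0.88, −1.13, −1.12, −0.88 and −0.72.

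Ribosomal transcripts shifted less. Of 72 genes of the mitochondrial ribosome tested, 23 fell and none rose, and the other 49 were lower too, with a median log2 FC of −0.64. mRpL50 went from 28.7, 27.5 and 23.4 CPM to 11.8, 10.1 and 13.2 CPM (log2 FC −1.17, SE 0.17, adjusted p = 0.00242). Of 82 genes of the cytosolic ribosome, 11 fell and none rose, with a median of −0.39. RpL39 was at 329, 289 and 261 CPM in young and at 181, 110 and 127 CPM in old libraries (log2 FC −1.07, SE 0.17, adjusted p = 0.00477). RpL22 fell by 0.96 (SE 0.15). The count of falls in the cytosolic list was 4 without F40A or F40B and 51 at most, reached without F5C, whose summed level of the list was 47046 CPM against 64259 and 73977 CPM in F5A and F5B. At 40 days the sum lay between 43193 and 49507 CPM, so that F5C lay within the range of the old libraries. For the mitochondrial ribosome the falls numbered 3 without F40B, and 0 without F5B and F40A.

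Of 44 genes of translation initiation and elongation, 7 fell and none rose. Among them were eIF-4E, which binds the mRNA cap, at 351, 360 and 339 CPM in young and 232, 194 and 225 CPM in old libraries (log2 FC −0.69, SE 0.12, adjusted p = 0.00575), and CG5642 (eIF3l), a subunit of initiation factor 3, with a fall by 0.78 (SE 0.13, adjusted p = 0.00560). Without F40B none of the 7 was called. The 32 proteasome genes tested had none that rose or fell in edgeR and a median of 0.06. Their most abundant member, Rpn1, was at 113, 131 and 103.6 CPM at 5 days against 125, 119 and 109 CPM at 40 days. In the vacuolar proton ATPase list 3 of 23 fell, led by Vha68-1 (log2 FC −0.99, SE 0.17, adjusted p = 0.00591).

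**Figure D3:**
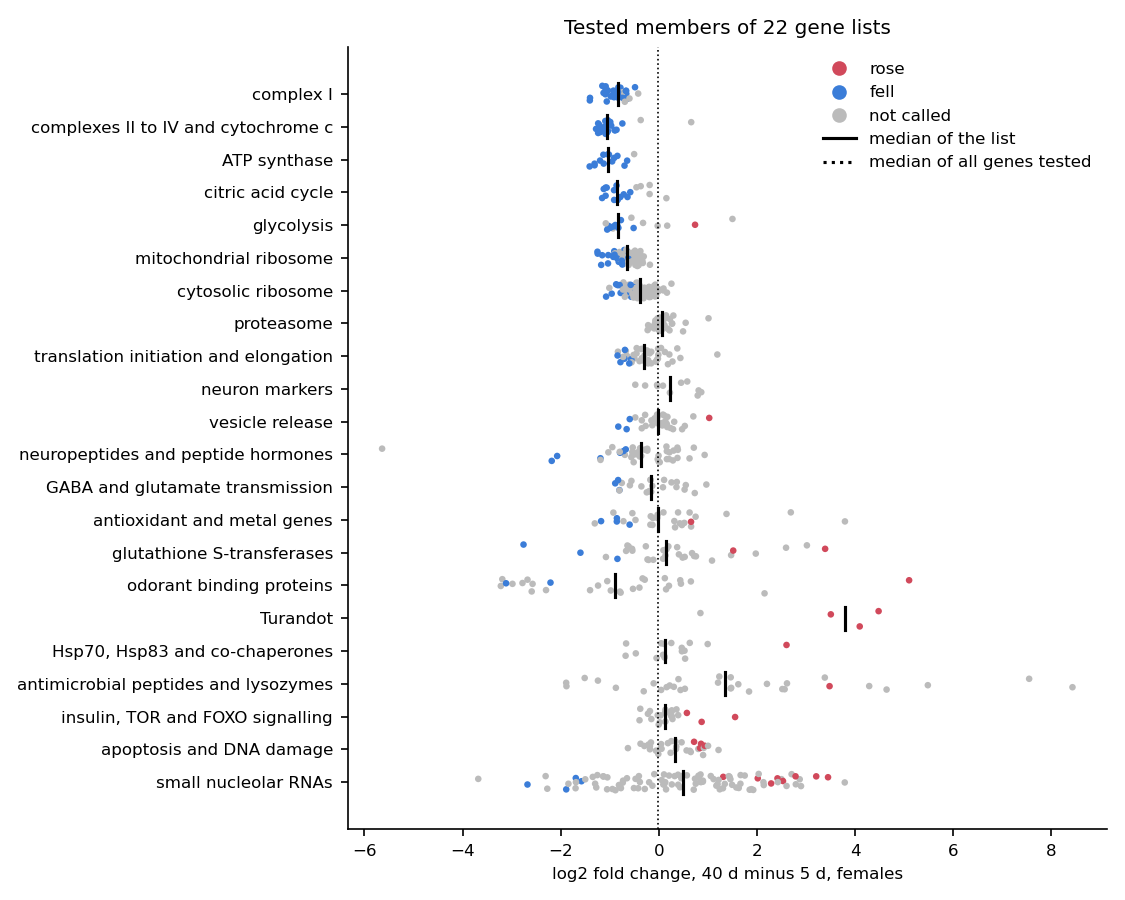
log2 fold change (40 minus 5 days, females) of the tested members of 22 gene lists, one point per gene, with a line at each list's median and a dotted line at the median of all genes tested (−0.03). Complex I, complexes II to IV, the ATP synthase, the citric acid cycle and glycolysis have medians between −0.82 and −1.06, while the proteasome lies at 0.06 and the Turandot genes at 3.80.

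Most members of the immune lists were higher at 40 days but not called. The share that rose was 75% for the Turandot genes, 3.1% for antimicrobial peptides and lysozymes and 4.5% for immune recognition and signaling. For the Hsp70 and Hsp83 families it was 5.9%, against 2.47% over all genes tested. Of the small heat shock genes 20% fell, against 4.87%. Of the 4 Turandot genes tested, which encode small secreted stress proteins, TotA, TotC and TotM rose. TotA was at 6.61, 10.8 and 4.38 CPM at 5 days against 105, 38.9 and 104.05 CPM at 40 days (log2 FC 3.51, SE 0.78, adjusted p = 0.0243). The 3 old libraries differed among themselves, with F40B lowest for each of the 3 genes, and none of the 3 calls remained without F5A, F5B, F5C or F40C. Of 32 antimicrobial peptide and lysozyme genes Drs alone rose, although 25 of the 32 were higher and the list's median was 1.35. DESeq2 called 4. Def, AttD, CecB and LysX had log2 FC of 5.48, 4.29, 4.64 and 8.43 and were not called. The summed level of this list was 7915, 2155 and 463 CPM in F5A, F5B and F5C and 5244 to 7132 CPM in the old libraries, so the ages overlapped.

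Of 44 genes of immune recognition and signaling, 2 rose. In all 35 of the 44 were higher at 40 days, 17 of them without overlap (1470 of 10505 over all genes), and in DESeq2 15 were called as higher and 1 as lower. Tep2, a thioester protein that marks microbes for engulfment, went from 214, 209 and 155 CPM to 366, 417 and 400 CPM (log2 FC 1.03, SE 0.18, adjusted p = 0.00576). ird5, the kinase of the Imd pathway, rose by 0.57 (SE 0.14, adjusted p = 0.0307). Both lost the call without F40B or F40C, and ird5 also without 4 other libraries. Among chaperones of the Hsp70 and Hsp83 families only Hsp68 was called of 17 tested, at 7.25, 9.22 and 7.14 CPM in young and 47.5, 55.6 and 40.7 CPM in old libraries. Small heat shock genes went down where they were called, 2 of 10, with Hsp67Ba at 45.2, 37.3 and 61.5 CPM at 5 days and 20.2, 19.6 and 27.9 CPM at 40 days (log2 FC −1.09, SE 0.22, adjusted p = 0.0129).

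Blood cell markers split. Beside the fall of PPO1 and PPO2, the plasmatocyte genes NimC2 and crq rose. NimC2, a phagocytosis receptor, was at 8.62, 7.44 and 7.78 CPM in young and at 27.2, 17.04 and 30.5 CPM in old libraries (log2 FC 1.65, SE 0.32, adjusted p = 0.0106). crq, a scavenger receptor for dying cells, went from 199, 169 and 163 CPM to 281, 295 and 281 CPM (log2 FC 0.69, SE 0.13, adjusted p = 0.00941). Hml, the most used plasmatocyte marker, lay at 396 to 524 CPM at 5 days and 435 to 493 CPM at 40 days and was not called. In the same list lz was at 15.2, 3.03 and 2.82 CPM in young and at 6.51, 8.65 and 4.75 CPM in old libraries (log2 FC −0.08). PPO3 had a log2 FC of 0.97 and Pxn of −0.84, and lz, PPO3 and Pxn were not called. In all 11 of the 15 markers tested were not called, and the list's median was −0.04. The summed level of the 16 markers was 1115 to 1374 CPM in young and 1050 to 1168 CPM in old libraries.

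In glia, drpr (Draper), the receptor by which glia engulf axon debris, rose from 120, 105 and 141 CPM to 252, 421 and 262 CPM (log2 FC 1.35, SE 0.23, adjusted p = 0.00587). Every old library was above every young one, and the call was lost without F40B alone. Of the 21 glia markers tested 3 fell. Eaat1, the glutamate transporter, went from 612, 711 and 1135 CPM to 411, 476 and 441 CPM (log2 FC −0.89, SE 0.20, adjusted p = 0.0203). nrv2, a subunit of the sodium pump, fell by 0.97 (SE 0.20, adjusted p = 0.0131) and the gap junction gene Inx2 by 0.75 (SE 0.14, adjusted p = 0.0106). Each of these falls was lost without F30B, F40B or F40C, those of Eaat1 and nrv2 also without F40A, and that of nrv2 also without F30A. The glia list summed to 8665 and 8960 CPM in F5A and F5B, to 14023 CPM in F5C and to 6596 to 7825 CPM at 40 days, and its other 17 members were not called.

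None of the 11 neuron markers was called in edgeR, with a median of 0.23, although 6 had an unadjusted p under 0.05 and DESeq2 called 4. Syt1, the calcium sensor of vesicle release, was at 1035, 1064 and 1590 CPM at 5 days against 1107, 1217 and 1278 CPM at 40 days, which lie between F5B and F5C. F5C was the highest library for Syt1, Appl and brp, and without it 5 of the 11 neuron markers rose, where each of the other 11 libraries left out gave none. Of 31 genes of vesicle release, 3 fell (9.68%) and 1 rose (3.23%), against 4.87% and 2.47% over all genes tested. comt, the NSF ATPase that takes SNARE complexes apart, was at 465, 454 and 532 CPM in young and 233, 303 and 284 CPM in old libraries (log2 FC −0.83, SE 0.16, adjusted p = 0.0126). alphaSnap, its adaptor, fell by 0.66 (SE 0.11, adjusted p = 0.00477) and Rop by 0.59 (SE 0.10). cac, the presynaptic calcium channel, rose from 170, 163 and 274 CPM to 361, 398 and 479 CPM (log2 FC 1.03, SE 0.20, adjusted p = 0.0120), but not without F40B or F40C. Without F5C 8 genes of the list rose.

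In vesicle endocytosis 3 of 18 genes fell. They were AP-2mu and AP-2sigma, subunits of the clathrin adaptor, with log2 FC of −0.86 (SE 0.10) and −0.85 (SE 0.18), and Synj, the lipid phosphatase synaptojanin, with a log2 FC of −0.44 (SE 0.12, adjusted p = 0.0444). AP-2mu kept its call without any one library, AP-2sigma lost it without 7 libraries and Synj without 8.

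Of 42 neuropeptide and peptide hormone genes, 6 fell and none rose, and these were SIFa, Ilp3, Ilp5, Pdf, ITP and Crz. Ilp5, made with Ilp3 in the insulin-producing cells of the brain, was at 126, 111 and 121 CPM at 5 days against 41.6, 51.9 and 63.6 CPM at 40 days (log2 FC −1.19, SE 0.24, adjusted p = 0.0129). The third peptide of these cells, Ilp2, had a log2 FC of −0.53 and was not called. Pdf, the transmitter of the clock neurons, went from 114, 145 and 145 CPM to 80.2, 69.6 and 83.9 CPM (log2 FC −0.79, SE 0.21, adjusted p = 0.0409). The fall of Ilp5 was lost without F40A or F40B and that of Pdf without 7 libraries, F5B, F5C, F30A, F20C and each old one.

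The insulin receptor gene moved against its ligands. InR was at 79.8, 86.6 and 134 CPM in young and at 226, 395 and 262 CPM in old libraries (log2 FC 1.56, SE 0.28, adjusted p = 0.00859). In its pathway Akt1, the kinase downstream of the receptor, rose from 100, 91.8 and 93.3 CPM to 154, 142 and 129 CPM (log2 FC 0.57, SE 0.12, adjusted p = 0.0136). CG13624 (REPTOR), a transcription factor held back by TOR, rose from 215, 203 and 256 CPM to 374, 465 and 397 CPM (log2 FC 0.87, SE 0.14, adjusted p = 0.00414). These were 3 of the 23 insulin, TOR and FOXO genes tested, and none fell. Without F40B none of the 3 was called, and InR was also lost without F5A, F5B or F40C.

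Transmitter genes changed one by one. Gad1, which makes GABA, was at 692, 713 and 960 CPM at 5 days against 406, 474 and 478 CPM at 40 days (log2 FC −0.80, SE 0.20, adjusted p = 0.0303), and Lcch3, a GABA receptor subunit, fell by 0.83 (SE 0.18, adjusted p = 0.0164). With Eaat1 they were the 3 genes called of 23 for GABA and glutamate. Of 16 acetylcholine genes, the receptor subunit nAChRalpha5 rose (log2 FC 0.95, SE 0.25, adjusted p = 0.0409) and nAChRalpha2 fell (log2 FC −0.75, SE 0.15, adjusted p = 0.0138). None of 34 monoamine genes was called in edgeR, and their most abundant member, the vesicular transporter Vmat, spanned 218 to 568 CPM at 5 days alone. Each of these calls was lost without F40B. Without F5C the rises numbered 8 in the acetylcholine, 3 in the GABA and glutamate and 5 in the monoamine list.

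Of 33 ion channel genes, 3 rose (9.09%) and 2 fell (6.06%), against 2.47% and 4.87% over all genes tested. Sh and slo, the voltage-gated and calcium-activated potassium channels, rose by 0.84 (SE 0.24, adjusted p = 0.0491) and 0.83 (SE 0.21, adjusted p = 0.0345) on the log2 scale. The third riser was cac. Ork1, a leak potassium channel, fell from 80.4, 79.5 and 92.8 CPM to 39.6, 46.8 and 38.4 CPM (log2 FC −1.02, SE 0.16, adjusted p = 0.00414), and Irk2, an inward rectifier, fell by 0.87 (SE 0.16, adjusted p = 0.00919). Ork1 alone kept the call without any one library. The rises of this list numbered 0 without F40B or F40C and 13 without F5C.

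Among genes of learning and memory signaling, 3 of 28 rose and none fell. scb, an alpha integrin, was at 38.7, 49.4 and 56.8 CPM in young and at 231, 195 and 113 CPM in old libraries (log2 FC 1.90, SE 0.47, adjusted p = 0.0333). orb2, an RNA-binding protein of long-term memory, rose by 0.79 (SE 0.22, adjusted p = 0.0451) and the adaptor drk by 0.41 (SE 0.11, adjusted p = 0.0371). None of the 3 was called without F5A, F5B, F30A, F20C or any one of the old libraries, and without F5C 9 genes of the list rose. With the trend in exon length described below removed, 2 genes of the list rose and 4 fell. The list's median was then −0.01, against 0.12 as counted. In the clock list cwo rose (log2 FC 0.81, SE 0.16, adjusted p = 0.0128) and cyc fell (log2 FC −0.38, SE 0.10, adjusted p = 0.0375) beside Pdf, with 17 others not called.

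Genes of damage signaling rose where they were called, 4 of 31. puc, the phosphatase induced by JNK signaling, was at 73.1, 62.4 and 72.6 CPM at 5 days against 137, 144 and 118 CPM at 40 days (log2 FC 0.94, SE 0.16, adjusted p = 0.00574). Xrp1, a stress-induced transcription factor that also acts in DNA repair, went from 433, 481 and 359 CPM to 810, 811 and 659 CPM (log2 FC 0.84, SE 0.17, adjusted p = 0.0120). The other members were the Ku homolog Irbp (log2 FC 0.86, SE 0.19) and rad50 of the double-strand break complex (log2 FC 0.72, SE 0.14). In each of the 4 the old libraries lay above the young ones, and none of the 4 calls remained without F40B.

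Of 29 antioxidant and metal genes, 4 fell and 1 rose in edgeR, while DESeq2 called 5 as lower and 6 as higher. The list's median was −0.02. Sod2, the mitochondrial superoxide dismutase, was at 143, 115.3 and 89.03 CPM in young and at 63.5, 44.1 and 46.0 CPM in old libraries (log2 FC −1.18, SE 0.18, adjusted p = 0.00412). Sod, the cytosolic enzyme, went from 372, 363 and 349 CPM to 208, 195 and 197 CPM (log2 FC −0.85, SE 0.09, adjusted p = 0.00107), and the extracellular Sod3 fell by 0.86 (SE 0.21, adjusted p = 0.0299). The transcription factor cnc, which turns on antioxidant genes, rose from 293, 274 and 279 CPM to 430, 488 and 417 CPM (log2 FC 0.66, SE 0.11, adjusted p = 0.00576), while its partner maf-S fell by 0.59 (SE 0.11, adjusted p = 0.00941). Sod, cnc and maf-S kept their calls without any one library, Sod2 lost it without F40B or F40C and Sod3 without 10 libraries. The other 24 of 29 were not called in edgeR.

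Genes of the detoxification families were called in both directions. Of 32 glutathione S-transferases GstD2 and GstE8 rose (6.25%) and 3 fell (9.4%), against 2.47% and 4.87% over all genes tested. GstD2 was at 2.45, 1.16 and 0.714 CPM at 5 days against 6.10, 16.5 and 22.8 CPM at 40 days (log2 FC 3.39, SE 0.71, adjusted p = 0.0164), while GstE13 went from 18.0, 18.9 and 20.4 CPM to 9.63, 4.19 and 5.04 CPM (log2 FC −1.60, SE 0.29, adjusted p = 0.00803). Members of this family are close copies in tandem, and reads shared between copies could be divided or dropped in counting. Of 75 cytochrome P450 genes 1.33% rose and 2.67% fell, against 2.47% and 4.87% over all genes. Cyp4e3 rose and Cyp28c1 (log2 FC −1.43, SE 0.24) and Cyp6a2 (log2 FC −1.02, SE 0.23) fell. None of these was called without F40B, and GstD2, GstE8, Cyp4e3 and Cyp6a2 were each lost without 8 or more libraries.

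Odorant binding proteins are small carriers of hydrophobic molecules that are also made outside the antenna. Of 28 tested, Obp44a and Obp99a fell (7.14%) and Obp99b rose (3.57%), against 4.87% and 2.47% over all genes tested. The list had a median of −0.89, with 20 members lower and 8 higher. Without overlap 2 of the 28 were lower and 2 higher, against 1952 and 1470 of 10505 over all genes tested. The summed level of the list was 2885 to 3597 CPM in young and 924 to 1264 CPM in old libraries. Obp44a alone had a mean of 2273 CPM at 5 days and 492 CPM at 40 days, against 3189 and 1120 CPM for the list. Obp28a, Obp83a, Obp83b and Obp84a, with log2 FC of −3.19, −2.59, −2.68 and −3.22, were not called.

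Tetraspanins, membrane proteins that organize surface complexes, were called in both directions as well, 2 up and 3 down of 30. TM4SF had the largest fall, with a log2 FC of −1.91 (SE 0.16, adjusted p = 0.00041), and kept its call without any one library. Tsp42Ej went from 266, 190 and 240 CPM to 58.4, 93.3 and 86.9 CPM (log2 FC −1.55, SE 0.22, adjusted p = 0.00247) and Tsp5D fell by 1.26 (SE 0.26, adjusted p = 0.0142). Tsp42Ed rose from 35.4, 70.0 and 38.3 CPM to 269, 277 and 157 CPM (log2 FC 2.29, SE 0.49, adjusted p = 0.0193). Tsp39D rose by 0.54 (SE 0.15, adjusted p = 0.0492), a call lost without any one of the 12 libraries. Tsp42Ed and Tsp42Ej belong to 1 gene cluster, and they moved in opposite directions. Tsp42Ej kept its call without any one library, and Tsp42Ed lost it without 9.

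In the extracellular matrix 3 of 16 genes rose and none fell. Mmp1, a matrix metalloproteinase, was at 40.3, 40.8 and 34.4 CPM in young and at 146, 119 and 96.1 CPM in old libraries (log2 FC 1.64, SE 0.32, adjusted p = 0.0117). The laminin wb rose by 1.04 (SE 0.23, adjusted p = 0.0180) and the collagen XV/XVIII gene Mp by 0.84 (SE 0.17, adjusted p = 0.0138). None of the 3 was called without F40C. Of 21 cytoskeletal genes, alphaTub84D (log2 FC −0.85, SE 0.10) and betaTub56D (log2 FC −0.75, SE 0.14) fell. Of the lipid genes, Lip4, an acid lipase gene, rose from 14.6, 20.7 and 7.41 CPM to 48.2, 87.2 and 57.9 CPM (log2 FC 2.18, SE 0.45, adjusted p = 0.0161) and HLH106 (SREBP), the lipid synthesis regulator, rose by 0.53 (SE 0.14, adjusted p = 0.0336). Both were lost without any one of 7 or more libraries.

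Small nucleolar RNAs, which sit in introns of host genes and guide chemical changes of ribosomal RNA, held the 2 smallest p-values of the comparison. Of 99 tested, 8 rose (8.08%) and 4 fell (4.04%), against 2.47% and 4.87% over all genes tested. The 5 copies snoRNA:Psi18S-1377a to e lie inside RpS7 on 3R (30206976 to 30207883, minus strand), and all 5 rose, by 1.31 to 3.45 on the log2 scale. snoRNA:Psi18S-1377c was at 2.36, 1.54 and 1.46 CPM at 5 days against 16.2, 19.3 and 23.1 CPM at 40 days (log2 FC 3.45, SE 0.31, adjusted p = 0.000523), and snoRNA:Psi18S-1377b went from 5.23 to 7 CPM at 5 days to 32.4 to 42.5 CPM at 40 days (log2 FC 2.53, SE 0.20, adjusted p = 0.000407). Their host did not follow. RpS7 was at 1312, 1630 and 868 CPM in young and at 942, 753 and 975 CPM in old libraries (log2 FC −0.51, SE 0.21, adjusted p = 0.140).

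The same held for a pair in RpL17 on X, snoRNA:Psi28S-3436a and b, with rises of 2.02 and 2.79 against −0.37 for the host. In RpS5a on X, snoRNA:Psi28S-1192a (11.8, 7.39 and 44.9 CPM in young, 3.95, 3.11 and 2.93 CPM in old libraries) and snoRNA:Psi18S-1854c fell, while the host was at −0.43 and not called. The others tested in RpS5a spanned log2 FC of −1.84 (snoRNA:Psi28S-2876) to 2.60 (snoRNA:Psi18S-1854a), and none of these was called. All 12 small nucleolar RNAs called lay inside a host gene, as did 87 of the 94 with a known position, called or not. Of the hosts of the 12, 1 was called, RpL22, which fell with snoRNA:Psi18S-531. Uhg4 and Uhg5, genes known as hosts of small nucleolar RNAs without a protein product and chosen after their values were seen, rose by 2.15 (SE 0.34) and 1.25 (SE 0.14). snoRNA:Or-aca5 and snoRNA:Or-CD2, which lie in Uhg4, had log2 FC of −2.27 and −1.13 and were not called. Small nucleolar RNAs named with a to e are copies of a guide RNA, and a host's unspliced RNA covers the same bases, so how the counts divide among copies and hosts is uncertain. Without F5B and F40A, 6 of the risers and 2 of those that fell were called.

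Several lists had no called member in edgeR. They were the proteasome, autophagy, monoamine, UDP-glucuronosyltransferase and neuron lists and the fat body, midgut, ovary and sex markers. An unadjusted p under 0.05 was found for 2 proteasome, 3 autophagy, 6 monoamine and 3 UDP-glucuronosyltransferase genes, of which lists DESeq2 called 1, 1, 1 and 2. For the fat body, ovary and sex markers it was found for 5, 3 and 5 genes, with 3, 1 and 3 called in DESeq2, and for the midgut markers for 0, with 0 called in DESeq2. In autophagy Atg8a was at 700, 722 and 524 CPM at 5 days and 684, 671 and 677 CPM at 40 days. ref(2)P, the p62 adaptor that autophagy degrades, was at 295, 321 and 281 CPM in young and 434, 549 and 392 CPM in old libraries. Its groups did not overlap, and it passed the contrast (adjusted p = 0.0475) but not the test over ages. Among muscle markers the giant proteins sls (log2 FC 2.12, SE 0.46) and bt (log2 FC 1.61, SE 0.42) were called as rises and the other 22 were not, and the list's median was −0.16.

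Length moved with the change. The 2599 genes with the longest exons, 3440 bases or more in sum, had 126 rises and 27 falls and a median log2 FC of 0.14. The 2600 genes with the shortest, up to 1214 bases, had 42 rises and 207 falls and a median of −0.15. In males the medians of these groups ran the other way, −0.06 and 0.10. When a smooth trend with length was removed from each library, 254 genes rose and 407 fell (194 and 330 of them among the calls above). The lists of short transcripts then lay closer to 0, with medians of −0.65 for complex I, −0.84 for complexes II to IV, −0.91 for the ATP synthase, −0.43 for the mitochondrial and −0.18 for the cytosolic ribosome. Falls in them numbered 25, 20, 12, 6 and 7. sls and bt, with exons of 58996 and 28019 bases, were not called then.

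**Figure D4:**
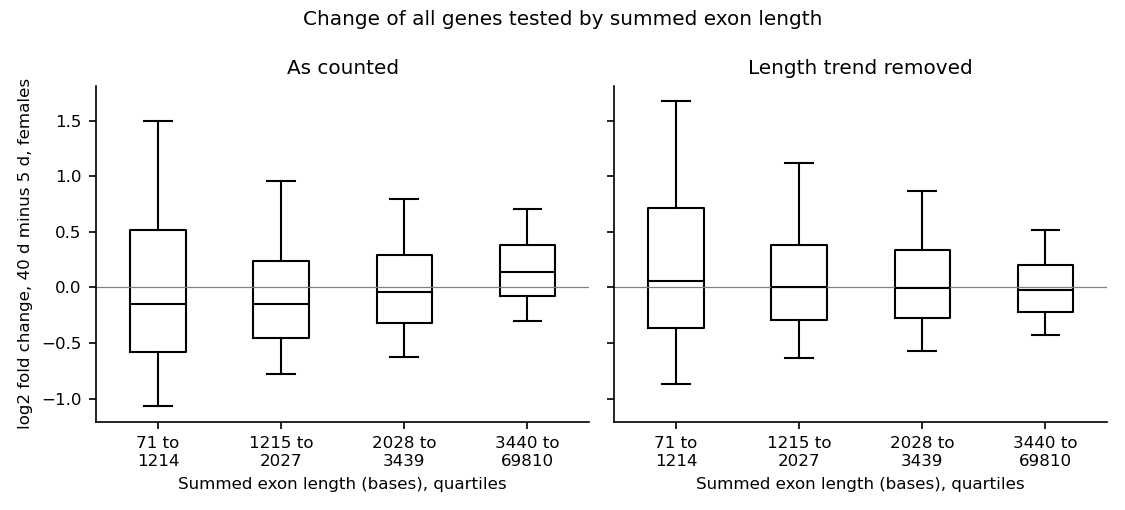
Distribution of the log2 fold change (40 minus 5 days, females) of all genes with a known exon length, in 4 groups of increasing summed exon length (bases), as counted (left) and with the length trend of each library removed (right), where boxes span the 25th to the 75th percentile, the line is the median and whiskers reach the 10th and 90th percentiles. The median goes from −0.15 in the shortest to 0.14 in the longest group as counted, and lies between −0.02 and 0.06 after removal.

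Male brains of the same ages were set beside the females to see where the female change differs. The male libraries share no sample with the female ones. Of the genes that fell in females, 495 of 512 were also lower in old males (median log2 FC −0.59, against −0.84 in females), and of those that rose, 249 of 258 tested were higher (0.58, against 0.94). These genes were selected by their female values, so a smaller median change in males follows in part from the selection. Over all genes tested in both, 7320 of 10313 had the same sign, and the medians were −0.03 in females and −0.02 in males. In males 31 of 10799 genes were called (0.287%), 21 of them among the female calls with the same rule. The lower count in males is no test of a difference. In the test of the difference itself, 0 of 11332 genes passed in edgeR, 712 had an unadjusted p under 0.05 and 18 passed in DESeq2.

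The smallest interaction p-values in each direction are given as values. Obp99b rose in females and was lower in old males, at 368, 38.1 and 330 CPM in M5A to M5C and 121, 85.3 and 27.8 CPM in M40A to M40C (difference of the log2 FC 6.74, unadjusted p = 5.84e-05, adjusted p = 0.337). Hsp68 had a log2 FC of 2.60 in females and 1.02 in males (difference 1.58, adjusted p = 0.416). CG14231 (Tcs4) had 0.53 and −0.61 (difference 1.14, adjusted p = 0.404). The lower values in females belonged to CG6878 (−1.41 against −0.37), Dpy-30L1 (−1.13 against −0.19) and CG17680 (EMRE), a regulator of the mitochondrial calcium channel (−1.20 against −0.32), each with an adjusted p of 0.337. The cytosolic ribosome list had a median of −0.39 in females and 0.06 in males, and the ATP synthase list −1.03 and −0.80, with no test of these differences.

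**Figure D5:**
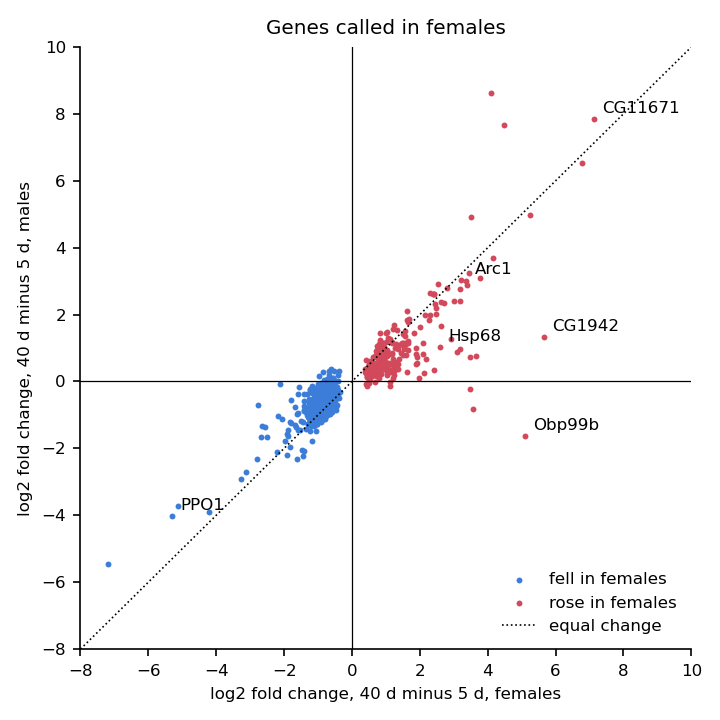
log2 fold change (40 minus 5 days) in females (x axis) and males (y axis) of the genes called in females, one point per gene, with those that fell in blue and those that rose in red and a dotted line at equal change. Points lie mostly in the lower left and upper right, with 495 of 512 and 249 of 258 genes on the same side of 0, and Obp99b stands at 5.10 in females and −1.64 in males.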

How the data were processed

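RNA-Seq was performed on 23 libraries, each from a pool of 18 brains. Per the labels and the methods, the authors used Trimmomatic for trimming, STAR for alignment (genome dm6) and HTSeq-count in union mode for the counts per gene, with the strand setting not given in the sources used here. They deposited these as raw counts, without normalization. The 12 female libraries were fitted here with edgeR 4.0.16 (R 4.3.3; filterByExpr, TMM, robust quasi-likelihood), with age as the group, and p-values were adjusted by Benjamini-Hochberg over all genes tested. DESeq2 1.42.0 was an alternative. Others were size factors, filters, thinning to the smallest library, the 6 libraries alone, both sexes together, removal of a length trend, and left-out libraries. The difference between the sexes was an interaction in a fit of 23 libraries. Scripts were tested on simulated data.

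Genes named were the 12 largest rises and falls among called genes with a mean of at least 5 CPM and no overlap, up to 4 per list and direction on the same terms, up to 3 of a list without calls, and the smallest interaction p-values. Any other gene given with values was chosen after they were seen. The members and lists were chosen with earlier results of these data known. Whether replicates are separate cultures is not stated, so p-values measure the spread between these pools. Promoter windows were not analysed here. Some results are not reported here.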

Additional observations from a re-analysis of the deposited data

Results flagged for a closer look

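Only the genes named by the rule or after their values were seen were searched here, not all genes tested. In 3 of them every old library lay on one side of the young ones in females and on the other side in males. None of the 3 passed the test of that difference after adjustment in edgeR. Yp3, a yolk protein gene, was at 14471, 11707 and 5343 CPM in 5-day-old and at 1660, 676 and 1894 CPM in 40-day-old females, against 9.49, 22.1 and 14.1 CPM and 67.7, 30.2 and 26.3 CPM in males (difference of the log2 fold changes −4.36, adjusted p = 0.470). The germline gene dhd was at 2.92, 4.78 and 25.5 CPM in young females and at 0, 0.406 and 0.176 CPM in old ones. In males it was at 0 in all 3 young libraries and at 0.265, 0.0683 and 0.310 CPM in old ones, values of only a few counts. The difference of −10.99 (adjusted p = 0.642) rests on libraries at 0 and is no bound. CG14231 was among the genes searched because its interaction p-value was among the smallest. It was at 7.29 to 8.02 CPM in young and 10.3 to 12.03 CPM in old females, and at 9.90 to 12.1 CPM and 5.64 to 8.68 CPM in males (difference 1.14, adjusted p = 0.404).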

How the results depend on the processing

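Of the 155 called genes named by the rule or after their values were seen, 2998 of 3875 values under an alternative stayed past the threshold and 877 did not. None changed sign, which the lack of overlap between the groups largely fixes. Of the 27 named genes without a call, 673 values included 13 past the threshold. The number of genes changed moved from 771 to 1496 with DESeq2 (730 up), to 93 without F5B and F40A (21 up, 72 down) and to 9 without the libraries with mex1 above 10 CPM (5 up, 4 down). With 1 female library left out it ranged from 237 to 1197, with 66 to 511 up and 171 to 686 down. With only the 6 libraries compared, 326 genes fell. For the difference between the sexes DESeq2 called 18 genes and edgeR 0. The causes were not tested. Deviations from the mean of each age had r of −0.41, −0.64 and 0.21 between young and old libraries of letter A, B and C. The largest r of any young with any old library was 0.73, for F5B with F40A, the libraries with high midgut sums. Whether a letter marks a shared batch cannot be told from these values. With a replicate block 765 genes changed (280 up, 485 down). F40B, at 6770442 counts, limits what low genes can show.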

Other observations

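Genes chosen after their values were seen added groups that no list covers. Arc1, which forms capsids that carry RNA at synapses (2R, 14357927 to 14360297, minus strand), was at 452, 395 and 279 CPM in young and at 4108, 3964 and 3505 CPM in old libraries (log2 FC 3.36, SE 0.54, adjusted p = 0.00541), a call lost without F5B or F5C. The Myc gene dm (X, 3373159 to 3391697, plus strand), a regulator of growth, went from 116, 131 and 107 CPM to 348, 388 and 360 CPM (log2 FC 1.63, SE 0.16, adjusted p = 0.000715). The RNA-binding protein gene Imp rose by 0.98 and the heat-inducible noncoding RNA Hsromega by 1.17. In males the log2 FC was 3.02 for Arc1 and 1.85 for dm.

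The small chromosome 4 stood out by count. Of its 88 genes tested 10 rose (11.4%) and 3 fell, with a median log2 FC of 0.25 against −0.04 to 0.01 on the other arms. Among those that rose were pho, a Polycomb group factor, pan, the transcription factor of Wnt signaling, and bt. Its genes had a median exon length of 3720 bases, against 1900 to 2328.5 on the other arms, and with the length trend removed its median was 0.16. In males it was 0.10.

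By class of RNA, 10 of 325 long noncoding RNAs rose (3.08%) and 6 fell (1.85%), against 2.47% and 4.87% over all genes tested. Their median was 0.41. None of 23 miRNA genes was called in edgeR (median 0.79). Of protein-coding genes 232 rose and 495 fell, of 9729 tested.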
